A study of Homo sapiens with 6 samples.

Results

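The 42 genes described here encode 18 integrin alpha subunits, 8 integrin beta subunits and 16 adaptors and kinases of focal adhesions. They were chosen by name, with earlier results of these data known. They make up 42 of the 58051 genes in the deposited count table, and all 42 symbols matched a row. The libraries come from A375, an established line of human melanoma cells with a BRAF mutation. Cells were kept without serum for 2 h, then given for 2 h more either TGFB1, the TGF-beta ligand, at 10 ng/mL (3 libraries) or the carrier solution alone, called Vehicle here, which was 4 mM HCl holding BSA at 1 mg/mL (3 libraries). Both groups were therefore starved cells of 1 line, and the design text calls the 3 libraries of a group technical triplicates, so each p-value measures only the spread between these libraries. The question was which of these adhesion genes A375 cells used before the ligand, and which had changed in RNA level 2 h after it.

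Integrins are cell surface receptors built from 1 alpha and 1 beta chain. The pair sets the ligand: some bind collagens, some laminins, and some the RGD motif of fibronectin, vitronectin and the latent form of TGF-beta. Talins and kindlins bind the short tail of the beta chain and switch the receptor on. Vinculin, paxillin, ILK with its partners PINCH and parvin, the kinase FAK, the CAS scaffolds, zyxin and tensins then tie it to actin and to signalling. The integrins αVβ6 and αVβ8 are known for releasing active TGF-beta from its latent complex, which places integrins upstream of the ligand as well as among genes that can respond to it. Melanoma cells rely on β1 and αV integrins for adhesion and spread.

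Of the 8 members that passed the test below, 7 had promoter windows in RefSeq (GRCh38.p14), 15 windows in all, each from 250 bases before to 50 after a transcript start. For NEDD9, the member with the largest called change, and TNS3, the next by adjusted p, 2 of 3 windows each are shown, as far as no GENCODE 29 exon covers them. The third of NEDD9 overlaps its upstream window, and the third of TNS3 lies further downstream; neither held any motif searched here. Short sites are shown for ITGA5 and BCAR1, where the AP-1 motif TGANTCA was found, for BCAR1 in its most upstream window only. The BCAR1 site is free of GENCODE 29 exons. In the ITGA5 window such exons cover 194 of the 250 bases before the start, and its site lies within the annotated gene. Capitals mark GTCTG or its reverse complement, the core of the SMAD element, and TGANTCA. The first window of NEDD9 lies at chr6:11382349-11382598, the second at chr6:11232683-11232918, and those of TNS3 at chr7:47582587-47582836 and chr7:47582145-47582361, all read on the minus strand. The site of ITGA5 is chr12:54419255-54419283 and that of BCAR1 chr16:75268054-75268082, both also on the minus strand.
NEDD9, upstream start: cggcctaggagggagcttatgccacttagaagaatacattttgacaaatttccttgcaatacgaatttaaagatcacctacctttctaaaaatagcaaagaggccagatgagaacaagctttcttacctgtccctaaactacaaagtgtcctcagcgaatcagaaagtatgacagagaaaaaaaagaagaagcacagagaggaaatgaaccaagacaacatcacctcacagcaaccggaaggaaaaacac
NEDD9, downstream start: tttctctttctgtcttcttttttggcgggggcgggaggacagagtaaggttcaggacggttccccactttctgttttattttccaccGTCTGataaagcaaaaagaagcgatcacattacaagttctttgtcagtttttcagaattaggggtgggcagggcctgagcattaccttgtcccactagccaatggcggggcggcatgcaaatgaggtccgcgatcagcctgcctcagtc
TNS3, upstream start: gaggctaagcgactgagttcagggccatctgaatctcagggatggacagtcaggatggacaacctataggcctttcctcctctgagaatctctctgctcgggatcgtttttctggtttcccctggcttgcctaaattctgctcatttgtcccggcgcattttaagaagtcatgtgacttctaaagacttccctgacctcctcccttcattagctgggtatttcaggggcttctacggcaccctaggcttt
TNS3, second start: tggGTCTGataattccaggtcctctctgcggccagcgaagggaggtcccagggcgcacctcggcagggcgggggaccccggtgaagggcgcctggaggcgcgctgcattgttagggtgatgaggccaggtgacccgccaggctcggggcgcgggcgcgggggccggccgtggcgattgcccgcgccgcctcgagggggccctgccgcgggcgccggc
ITGA5 site: cctccccgcgtTGAGTCAttcgcctctgg
BCAR1 site: ataggacggagTGAGTCAtcctgggatca

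Read on both strands, GTCTG was in 8 of the 15 windows of called members and TGANTCA in 2, those of ITGA5 and BCAR1. The TEAD motif GGAATG was in 1 window, that of ITGA5, and the SRF motif CArG in 0. Over all 35116 RefSeq windows of 300 bases the shares were 45.3% for GTCTG, 7.71% for TGANTCA, 14.0% for GGAATG and 1.29% for CArG. The upstream windows of NEDD9 and TNS3 held none of the 4, which says only that these letters are not in these windows. A match describes the letters and is neither a site of binding nor a cause.

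The libraries held between 24713894 and 34895075 counts. SMAD7, an immediate target of TGF-beta, rose from 9.29 ± 1.74 to 61.1 ± 3.49 CPM (counts relative to the TMM-scaled library total; SD, n = 3 each), which checks the treatment labels. Of 9 melanocytic markers 4 stood at 1 CPM or more, among them S100B at 58.9 CPM in Vehicle and MITF, which fell from 62.7 to 53.5 CPM (adjusted p = 0.0355 by edgeR). The pigment genes MLANA (0.262 CPM) and TYR (0.0315 CPM) were near 0. SOX10 was listed at 0 in every library, and whether its RNA was absent or its reads went uncounted was not tested. The 9 summed to 122 to 138 CPM in Vehicle and 112 to 118 CPM with TGFB1, and whether this bears on the members below was not tested. Leukocyte and platelet markers bear on the integrins of those cells. PTPRC, the pan-leukocyte marker, had a Vehicle mean of 0.261 CPM. Of 9 leukocyte markers 3 reached 1 CPM: LYZ (6.63 CPM in Vehicle), NCAM1 (5.06) and CORO1A (4.26). Of 5 platelet markers 4 had 0 counts, and GP1BA had a Vehicle mean of 0.463 CPM. The summed leukocyte markers ran from 15.9 to 17.9 CPM in Vehicle and from 14.8 to 18.4 CPM with TGFB1, so they did not separate the groups. Of 7 fibroblast markers 4 reached 1 CPM: LUM (9.70 CPM in Vehicle, 7.76 CPM with TGFB1), PDGFRB (5.24 and 5.10), PDGFRA (3.26 and 2.40) and DCN (2.12 and 1.79). COL1A1, COL1A2 and THY1 had means under 0.2 CPM. None of the 7 was called. Their sum was lower in every TGFB1 library, at 16.96 to 17.66 CPM against 19.0 to 23.0 CPM in Vehicle. The part of these markers in the results was not tested. Of 5 endothelial markers 1 reached 1 CPM, and the sums overlapped (13.5 to 18.9 CPM in Vehicle, 15.3 to 16.5 CPM with TGFB1). In RNA from whole cultures, fewer cells that express a gene and less RNA per cell cannot be told apart.

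**Figure D1:**
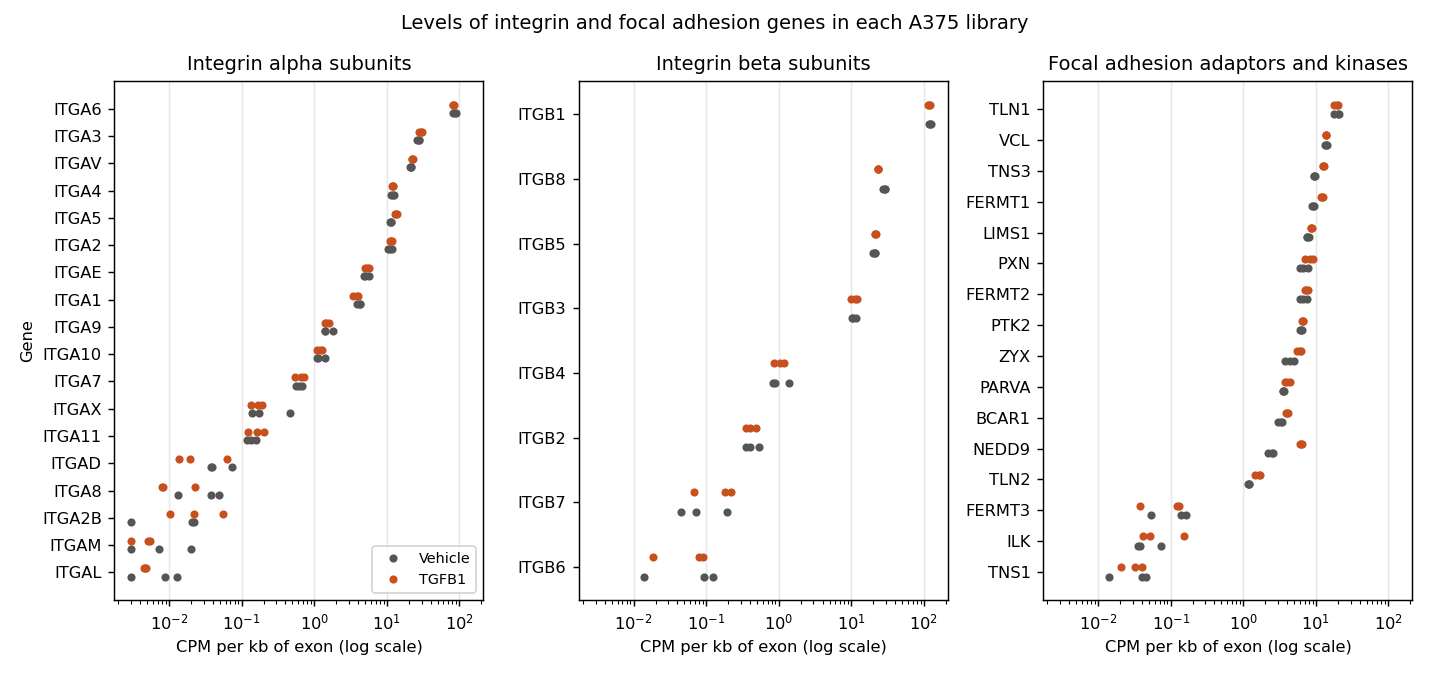
Level of each of the 42 genes in each library, as CPM per kb of exon on a log axis, with 3 Vehicle points (grey) and 3 TGFB1 points (orange) per gene; libraries at 0 are drawn at 0.003. ITGB1 and ITGA6 stand at the top of their panels, while ITGAL, ITGB6 and TNS1 have the lowest Vehicle means of theirs.

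Levels between genes are compared per kb of exon, the union of exons in GENCODE 29. In Vehicle, 32 of the 42 genes had a mean of at least 1 CPM: 13 of 18 alpha subunits, 6 of 8 beta subunits and 13 of 16 adaptors. ITGB1, the β1 chain, which has 12 alpha partners among these genes, was the highest at 121 ± 4.41 CPM per kb (SD, n = 3). ITGA6, a laminin receptor chain, followed at 86.0 ± 4.46 CPM per kb. Their ranges did not overlap, nor did ITGA6 overlap the next gene. Then came ITGB8 (28.3 CPM per kb) and ITGA3, another laminin receptor chain (27.2), whose ranges over the 3 libraries overlapped. ITGAV (21.1) and ITGB5 (20.8) overlapped too, as did ITGB5 and TLN1, the main talin (19.6). ITGA4 (11.9), the fibronectin receptor chain ITGA5 (11.3), the collagen receptor chain ITGA2 (11.1) and ITGB3 (10.8), the vitronectin receptor chain, formed a run in which each overlapped its neighbour. Over the 31 neighbouring steps in the order of the 32 genes, the ranges were separate at 15.

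Among adaptors, TLN1 was followed by vinculin (VCL, 13.8 CPM per kb), TNS3 (9.53) and the kindlin gene FERMT1 (9.08), each separate from the next. LIMS1, which encodes PINCH (7.73), PXN, which encodes paxillin (6.82), the other kindlin FERMT2 (6.76) and PTK2, which encodes FAK (6.22), ran together. ZYX (4.40), PARVA, which encodes a parvin (3.60), the CAS scaffolds BCAR1 (3.23) and NEDD9 (2.42) and the second talin TLN2 (1.18) were lower. PARVA, BCAR1 and NEDD9 were separate from each other. The blood-cell kindlin FERMT3 (0.118 CPM per kb) and TNS1 (0.0334) were near the bottom.

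The counts of ILK cannot be read as its level. ILK had 44 counts over all 6 libraries (0.0491 CPM per kb in Vehicle), and 78.5% of its exon bases lie under exons of opposite-strand genes, TAF10 among them, at 36.3 CPM in Vehicle. ITGB7 shares 42.1% of its exon bases with ZNF740 on the other strand, and its 108 counts carry the same doubt. On its own strand, ITGB3 shares 51.6% of its exon bases with a gene model. ITGB6 so shares 20.6%, and BCAR1, which passed the test below, 8.59%. ITGA1 shares 5.63% with PELO and a further gene model on its own strand. Reads could have been split or left out in these genes. Whether these overlaps set the counts was not tested.

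Of the 24 known integrin pairs, 16 had both subunits at a mean of at least 1 CPM in Vehicle. All 4 laminin receptors and all 4 collagen receptors were among them, 5 of 8 RGD receptors and 3 of 8 leukocyte and VCAM receptors. ITGB1 exceeded each of its 12 alpha partners, whose levels summed to 176 CPM per kb in Vehicle. ITGA6 alone made up 47.5% to 49.8% of that sum over the Vehicle libraries and 45.7% to 46.5% with TGFB1. For αV, ITGB8 and ITGB5 stood close to ITGAV itself, and ITGB6 was at 0.0761 CPM per kb from 60 counts over the 6 libraries. In the laminin receptor α6β4 the beta chain was the lower, with ITGB4 at 1.04 CPM per kb. Of the leukocyte β2 receptors, ITGAX with ITGB2 was the single pair above the floor, at 1.84 and 2.92 CPM, and 1 Vehicle library held ITGAX at 3.31 CPM while the other two stood at 0.986 and 1.24 CPM. ITGAL and ITGAM had 7 counts each over all libraries, ITGA2B, the platelet chain, had 23, ITGA8 had 32 and ITGAD had 33. RNA of both chains does not show a receptor at the surface.

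**Figure D2:**
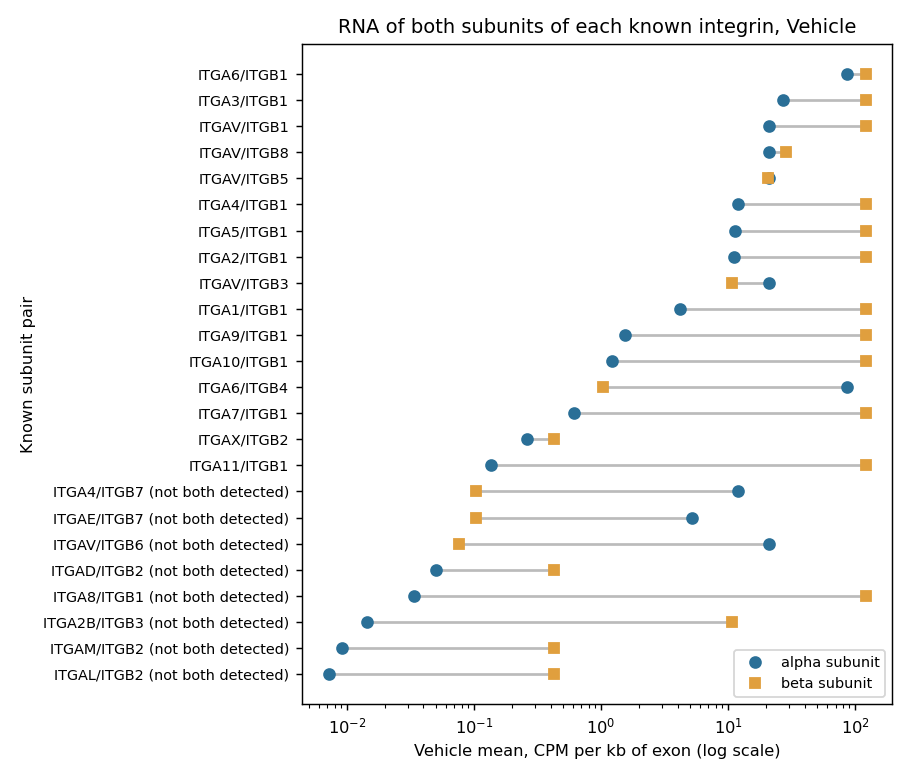
The 24 known integrin pairs, with the Vehicle mean of the alpha subunit (circle) and of the beta subunit (square) in CPM per kb of exon on a log axis, ordered by the lower of the 2. In most pairs with ITGB1 the alpha chain was the lower by far, while ITGAV lay near ITGB5 and ITGB8.

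After 2 h of TGFB1, 7 of the 36 members tested were higher and 1 was lower. The test was edgeR's quasi-likelihood test, with a threshold of 0.05 on p-values adjusted by Benjamini-Hochberg over the 16690 genes tested. That is 22.2% of the tested members, where 3.31% of all tested genes passed. The members were chosen with earlier results of these data known, so the shares given here describe the list and do not test it. Among genes with a mean of at least 10 CPM, 8 of 26 members passed, against 4.77% of all such genes (3.44% higher and 1.33% lower). By direction, 2.43% of all tested genes were higher and 0.887% lower. TGFB1 and Vehicle values were fully apart for 13 of the 36 members and for 16.4% of all tested genes. By role, the test called 1 of 13 alpha subunits (higher), 1 of 8 beta subunits (lower) and 6 of 15 adaptors (all higher). The median log2 fold change was 0.05 over tested members and -0.0067 over all tested genes, 0.04 over alpha subunits, -0.02 over beta subunits and 0.18 over adaptors. DESeq2 and limma-voom called the same 8 members. Without TGFB1 replicate 1, 4 of the 8 kept their call (NEDD9, TNS3, FERMT1 and ITGB8).

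The 6 members not tested, ITGA2B, ITGA8, ITGAD, ITGAL, ITGAM and ILK, fell below the low-count filter. The filter keeps genes by their counts in the libraries, so the 36 tested members are not all members.

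**Figure D3:**
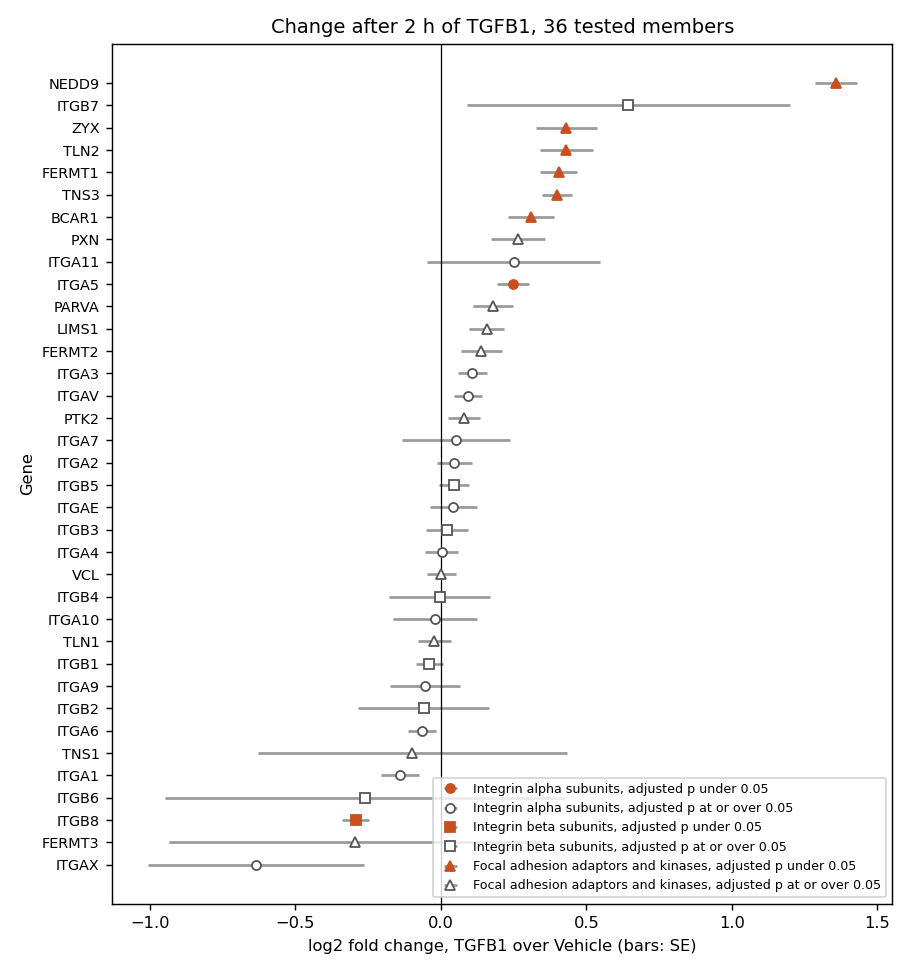
Log2 fold change of TGFB1 over Vehicle for the 36 tested members, with SE, ordered by size; filled orange symbols passed the test, and symbol shape gives the role. NEDD9 stands apart at 1.36, the other 6 filled symbols above 0 lie between 0.25 and 0.43, and ITGB8 is the single filled symbol below 0.

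Of the integrin subunits, ITGA5 rose and ITGB8 fell. ITGA5 (chromosome 12, 54395261 to 54419460, minus strand; coordinates of genes are those of GENCODE 29 on GRCh38) encodes the α5 chain of the main fibronectin receptor. Its Vehicle libraries stood at 87.3, 85.7 and 83.6 CPM and its TGFB1 libraries at 105.1, 99.5 and 100.1 CPM. The groups did not overlap, and the log2 fold change was 0.25 ± 0.05 (SE), or 1.19-fold, with an adjusted p = 0.0041 by edgeR. Without TGFB1 replicate 1 the adjusted p was 0.0684 by edgeR.

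ITGB8 (chromosome 7, 20330702 to 20415754, plus strand) encodes the β8 chain, which pairs with αV alone. Its Vehicle libraries stood at 439.7, 435.6 and 413.4 CPM and its TGFB1 libraries at 350.5, 348.5 and 353.3 CPM. All 3 TGFB1 libraries lay below all 3 Vehicle libraries, and within 5 CPM of each other. The log2 fold change was -0.29 ± 0.05 (SE), or 0.817-fold, with an adjusted p = 4.7e-05 by edgeR. Among the 36 tested members it was the only one called lower, and its adjusted p stayed at or below 0.00155 under each alternative run.

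The other abundant subunits moved little. ITGB1 stood at 718.6, 755.2 and 703.7 CPM in Vehicle and 685.4, 735.4 and 697.8 CPM with TGFB1, with groups that overlapped and a log2 fold change of -0.04 ± 0.05 (SE). ITGA6 stood at 588.5, 566.4 and 530.7 CPM and then 534.7, 533.3 and 543.6 CPM, also overlapping (-0.06 ± 0.05). ITGB5 stood at 137.4, 129.3 and 135.2 CPM and then 136.1, 136.4 and 141.7 CPM (0.04 ± 0.05), and these groups overlapped too.

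For ITGA3 and ITGAV the groups did not overlap, but the differences missed the threshold. ITGA3 stood at 273.6, 254.0 and 273.0 CPM in Vehicle and 292.3, 275.8 and 294.7 CPM with TGFB1 (log2 fold change 0.11 ± 0.05 SE, adjusted p = 0.352 by edgeR). ITGAV stood at 174.2, 174.8 and 171.6 CPM and then 183.7, 188.5 and 183.3 CPM (0.09 ± 0.05, adjusted p = 0.463 by edgeR). Both were a little higher in every TGFB1 library.

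ITGA4, an α4 chain best known from leukocytes and also made by melanoma cells, stood at 89.0, 95.2 and 98.4 CPM and then 94.6, 94.0 and 94.7 CPM (log2 fold change 0.00 ± 0.06 SE). ITGA1, a collagen receptor chain, stood at 80.0, 80.1 and 71.9 CPM and then 72.7, 73.8 and 63.7 CPM (-0.14 ± 0.06), with overlapping groups and an adjusted p = 0.348 by edgeR. PELO, whose exons overlap those of ITGA1, had a like log2 fold change of -0.13 ± 0.06 (SE). Together the 8 alpha and 3 beta subunits with a mean of at least 10 CPM that were not called had log2 fold changes from -0.14 to 0.11, with SE from 0.05 to 0.12. The 10 tested members with a mean under 10 CPM, among them ITGA7, ITGA10, ITGA11, ITGAX, ITGB2, ITGB4, ITGB6 and ITGB7, had SE from 0.14 to 0.69. A change of the size seen in ITGA5 was not detectable with such SE.

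NEDD9 changed more than any other member called. It lies on chromosome 6 (11183298 to 11382348, minus strand) and encodes a CAS family scaffold that FAK and SRC phosphorylate and that is known for its part in melanoma invasion. Vehicle libraries stood at 23.0, 25.8 and 26.4 CPM and TGFB1 libraries at 66.6, 63.9 and 62.8 CPM. The libraries of each group lay close together and the groups far apart. The log2 fold change was 1.36 ± 0.07 (SE), or 2.56-fold, with an adjusted p = 7.5e-16 by edgeR.

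BCAR1 (chromosome 16, 75228187 to 75268053, minus strand) encodes p130Cas, the founding CAS scaffold. It stood at 29.9, 27.6 and 31.5 CPM in Vehicle and 37.8, 35.6 and 37.0 CPM with TGFB1, without overlap. The log2 fold change was 0.31 ± 0.08 (SE, adjusted p = 0.0156 by edgeR), a call lost when Vehicle replicate 2 (0.149), TGFB1 replicate 3 (0.0772) or TGFB1 replicate 1 (0.121) was left out. Per kb of exon, NEDD9 was below BCAR1 in Vehicle (2.42 ± 0.179 against 3.23 ± 0.217 CPM per kb) and above it with TGFB1 (6.22 ± 0.188 against 4.01 ± 0.124 CPM per kb; SD, n = 3 each). NEDD9 moved from place 24 to place 19 in the order of the 42 genes.

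Of the integrin activators, FERMT1 and TLN2 rose. FERMT1 (chromosome 20, 6074845 to 6123544, minus strand) encodes kindlin-1, the kindlin typical of epithelia. It stood at 47.4, 48.5 and 50.1 CPM in Vehicle and 62.0, 64.8 and 66.6 CPM with TGFB1. The groups were well apart, and the log2 fold change was 0.40 ± 0.06 (SE, adjusted p = 3.3e-05 by edgeR). Of 7 epithelial markers 1 also rose, CLDN4, from 4.91 to 11.9 CPM, while CDH1 and EPCAM stood under 0.3 CPM in both groups. The 7 together summed to 232 to 243 CPM in Vehicle and 235 to 251 CPM with TGFB1, and most of this sum was KRT18. The part of such markers in the result was not tested.

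FERMT2, the widely expressed kindlin, stood at 57.2, 63.7 and 51.6 CPM in Vehicle and 62.5, 66.9 and 60.4 CPM with TGFB1 (log2 fold change 0.14 ± 0.07 SE, adjusted p = 0.42 by edgeR). Its groups overlapped.

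TLN2 (chromosome 15, 62390526 to 62844631, plus strand) stood at 19.2, 18.7 and 19.4 CPM in Vehicle and 27.6, 23.2 and 26.4 CPM with TGFB1, without overlap. Its log2 fold change was 0.43 ± 0.09 (SE, adjusted p = 0.00254 by edgeR), and without TGFB1 replicate 1 the adjusted p was 0.0513 by edgeR. TLN1, the far more abundant talin, stood at 181.4, 207.7 and 203.3 CPM and then 205.1, 180.3 and 197.9 CPM (log2 fold change -0.02 ± 0.06 SE), with groups that overlapped across their whole range.

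Among the links to actin, TNS3 and ZYX rose. TNS3 (chromosome 7, 47275154 to 47582558, minus strand) encodes a tensin, which binds beta tails and actin. It stood at 111.3, 113.6 and 112.2 CPM in Vehicle and 152.1, 145.6 and 146.5 CPM with TGFB1. The Vehicle libraries lay within 3 CPM of each other, and the log2 fold change was 0.40 ± 0.05 (SE, adjusted p = 1.3e-06 by edgeR).

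ZYX (chromosome 7, 143381080 to 143391111, plus strand) encodes zyxin, a LIM protein that gathers on adhesions under tension. It stood at 13.1, 15.5 and 17.4 CPM in Vehicle and 21.9, 19.1 and 21.3 CPM with TGFB1. The groups did not overlap, but the Vehicle spread was wide, and the log2 fold change was 0.43 ± 0.10 (SE, adjusted p = 0.0114 by edgeR). That call was lost when Vehicle replicate 1 (0.0936) or 2 (0.0636) or TGFB1 replicate 1 (0.111) or 3 (0.0638) was left out.

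**Figure D4:**
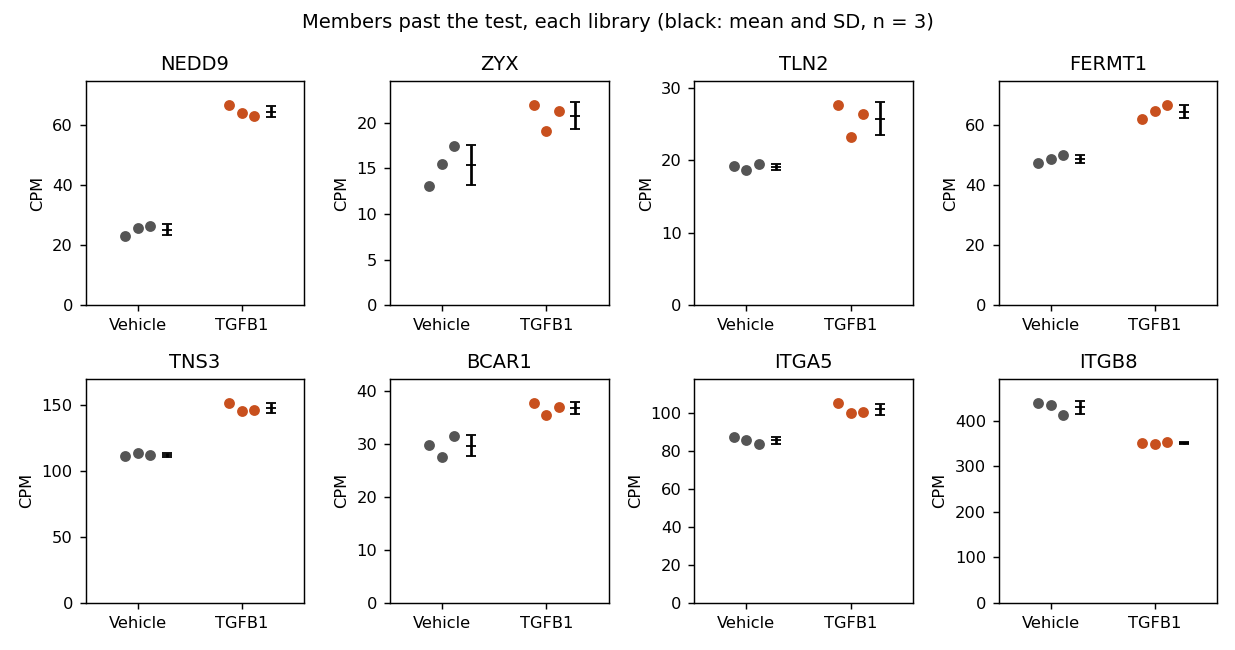
CPM of the 8 called members in each library, with the mean and SD of 3 libraries in black and every axis starting at 0. The groups are apart in each panel, most in NEDD9, and ITGB8 alone is lower with TGFB1.

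The remaining adaptors did not pass. VCL stood at 139.5, 134.9 and 139.9 CPM in Vehicle and 137.3, 139.2 and 138.2 CPM with TGFB1, nearly the same in all 6 libraries. PXN stood at 45.5, 49.1 and 58.1 CPM and then 68.4, 53.5 and 62.0 CPM, with overlapping groups (log2 fold change 0.27 ± 0.09 SE, adjusted p = 0.184 by edgeR). It passed without Vehicle replicate 3 (0.00106), without TGFB1 replicate 2 (0.0146) and with no low-count filter (0.00577).

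PARVA stood at 45.6, 45.6 and 47.4 CPM in Vehicle and 56.3, 52.2 and 48.3 CPM with TGFB1 (log2 fold change 0.18 ± 0.07 SE, adjusted p = 0.216 by edgeR). LIMS1 stood at 58.7, 58.7 and 62.7 CPM and then 66.2, 65.6 and 69.1 CPM (0.16 ± 0.06, adjusted p = 0.218 by edgeR). These 2 partners of ILK, and PTK2 with a log2 fold change of 0.08 ± 0.06 (SE), had groups that did not overlap and differences that missed the threshold. FERMT3 and TNS1, under 1 CPM, had SE of 0.64 and 0.53.

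Ratios between related genes within a library do not depend on how libraries are scaled. Of 8 such ratios, chosen after the values were seen, 5 did not overlap between the groups. With 3 libraries against 3, the exact two-sided permutation test cannot go below p = 0.1, which each of these 5 reached (0.16 adjusted over the 8), so no ratio could pass the threshold and the values are a description. NEDD9 over BCAR1 (per kb) was 0.679, 0.83 and 0.743 in Vehicle and 1.56, 1.59 and 1.5 with TGFB1. TLN2 over TLN1 was 0.0658, 0.0559 and 0.0594, then 0.0836, 0.0801 and 0.0829. Both ratios were higher in every TGFB1 library.

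ITGB8 over ITGAV, the 2 chains of αVβ8, was 1.37, 1.35 and 1.31 in Vehicle and 1.03, 1.00 and 1.04 with TGFB1. ITGB8 over ITGB5 was 1.36, 1.43 and 1.30, then 1.10, 1.09 and 1.06. Of the 4 beta partners of αV other than β1, ITGB8 made up 45.6% to 48.6% of the summed level in Vehicle and 41.2% to 42.5% with TGFB1. ITGB5 over ITGAV overlapped between the groups (log2 difference -0.05, exact permutation p = 0.3).

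ITGA5 over ITGB1, the chains of α5β1, was 0.0963, 0.09 and 0.0943 in Vehicle and 0.122, 0.107 and 0.114 with TGFB1. FERMT1 over FERMT2 overlapped (log2 difference 0.26, exact permutation p = 0.2). TNS3 over TNS2, another tensin, overlapped as well (0.24, exact permutation p = 0.3).

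**Figure D5:**
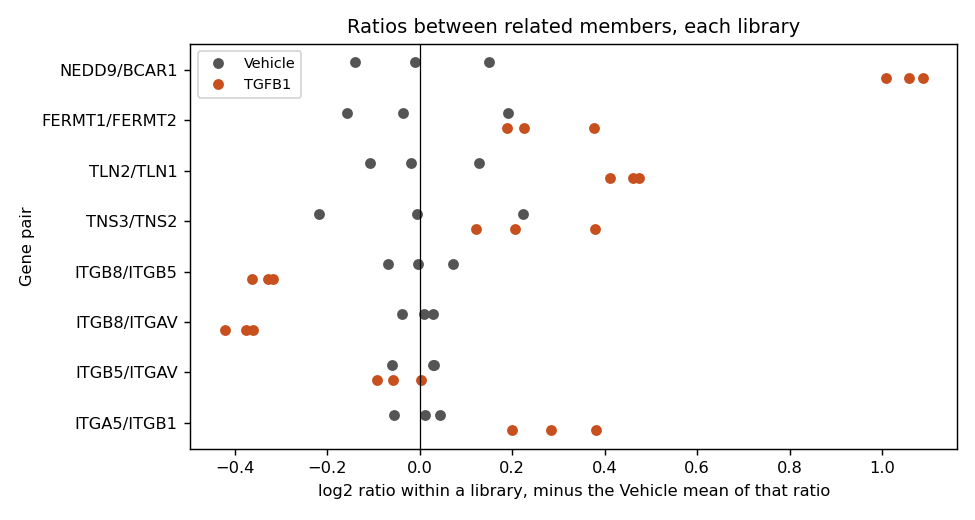
Log2 ratios of 8 gene pairs in each library, less the Vehicle mean of that ratio, for Vehicle (grey) and TGFB1 (orange). The groups are apart for NEDD9/BCAR1, TLN2/TLN1, ITGB8/ITGB5, ITGB8/ITGAV and ITGA5/ITGB1, and overlap for the other 3.

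Of 92 further genes of integrin signalling in 5 lists, 85 were tested, of which 5 were higher and 0 lower with TGFB1 by edgeR, or 5.88%, against 3.31% of all tested genes. At an unadjusted p under 0.05, 14 were higher and 1 lower, where 1236 were higher and 812 lower of all 16690 genes, and DESeq2 and limma-voom also called 0 lower. Their median log2 fold change was 0.04. These lists too were chosen with earlier results of these data known. Of 15 integrin-proximal activators and inhibitors, such as the RAP1 switches, filamins and KANK proteins, 0 were called by edgeR, DESeq2 or limma-voom, and 2 had an unadjusted p under 0.05 by edgeR, as had 2048 of all 16690. The most abundant of these per kb were SLC3A2, the CD98 heavy chain that binds beta tails (log2 fold change -0.05 ± 0.05 SE), and FLNA, the filamin that competes with talin (0.10 ± 0.05).

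Of 22 actin linkers and LIM proteins 1 was higher, the LIM-only gene FHL2 (log2 fold change 0.28 ± 0.07 SE, adjusted p = 0.0181 by edgeR). It lost its call without TGFB1 replicate 2 (0.0761) or 3 (0.206) or Vehicle replicate 1 (0.0865) or 2 (0.0537).

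Of 15 integrin ligands, LAMB3, a chain of laminin-332, which α3β1 and α6β4 bind, rose from 22.9 ± 0.841 to 28.8 ± 0.935 CPM (SD, n = 3 each). Its adjusted p = 0.0164 by edgeR was lost without TGFB1 replicate 1 (0.129) or 2 (0.0520) or Vehicle replicate 2 (0.0933). FN1, the ligand of α5β1, had a log2 fold change of 0.28 ± 0.08 (SE) and an adjusted p = 0.109 by edgeR. Of these ligands, DESeq2 called 2 higher, where edgeR and limma-voom each called 1. A further list held 8 tested genes for TGF-beta ligands, the LTBP family and another latency protein. Of these, LTBP3 (41.3 ± 6.47 to 60.4 ± 4.18 CPM; SD, n = 3 each) and LTBP2 (2.03 to 3.60 CPM) were higher. LTBP3 was called under each alternative run, while LTBP2 lost its call with DESeq2 (0.0898), limma-voom (0.0556), total-count scaling (0.0527) and the replicate block (0.0547), and without TGFB1 replicate 1 (0.237) or 2 (0.2) or Vehicle replicate 2 (0.258).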

How the data were processed

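The authors deposited unnormalized read counts for Ensembl genes, made with cutadapt, TopHat2 2.1 and HTSeq on GRCh38, per the submitters' processing notes; for the annotation release, counting mode and strand, the entry is "not given in the sources used here". The labels name polyA RNA, while their protocol describes ribosomal RNA depletion. Genes were kept with filterByExpr (minimum count 10, minimum total 15), scaled by TMM and tested with edgeR 4.0.16 (quasi-likelihood, robust, group as the sole term), adjusted by Benjamini-Hochberg over 16690 genes, threshold 0.05. The SE is the log2 fold change over the square root of F. Levels per kb divide CPM by GENCODE 29 exon length. DESeq2 1.42.0 and limma-voom 3.58.1 were alternatives, beside other scalings, filters, a replicate block and leaving out each library. Library totals ran from 24713894 to 34895075 counts. The fit was tested on simulated data, with 50 genes changed at each size. It recovered 38% of 1.25-fold changes, 74% of 1.5-fold and of 2-fold changes and 90% of 4-fold changes. Of its 146 calls, 5.48% were false. Changes as small as those of most called members could thus be missed.

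Members and lists were chosen with earlier results of these data known. Given with every library are members past the threshold, the next 6 by p, and the 4 alpha subunits, 3 beta subunits and 4 adaptors with the highest Vehicle level per kb; of each further list, up to 4 called genes, or the 2 most abundant. FN1, the counts of members under the floor, the overlapping genes and the 8 ratios were chosen after their values were seen. Protein sequences were not used here. The genes of 1 of the 5 further lists are counted in the total but not reported here on their own.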

Additional observations from a re-analysis of the deposited data

How the results depend on the processing

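The 8 member calls were kept with DESeq2, limma-voom, DESeq2 size factors, upper-quartile and total-count scaling, a stricter filter (50 counts or more in 3 libraries), no low-count filter (9 calls, with PXN) and the replicate block (8 calls). Leaving out 1 library gave 4 to 9 member calls, 365 to 923 calls over all genes, against 553, and 2 to 11 calls among the further genes, against 5; total-count scaling gave 3 of those. The low values of 365 and 4 were without TGFB1 replicate 1 and the high ones of 923 and 11 without Vehicle replicate 3. The cause was not tested. The median log2 fold change of tested members, 0.05, was 0.056 with no low-count filter, 0.031 with upper-quartile scaling and from 0.045 to 0.10 with 1 library left out. No scaling moved the median of all genes by more than 0.1.

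NEDD9, TNS3, FERMT1 and ITGB8 kept direction and call under all 14 alternatives. Values near 0 changed sign: with 1 library left out, log2 fold changes ran from -0.034 to 0.035 for ITGA4, from -0.078 to 0.031 for TLN1 and from -0.014 to 0.011 for VCL. With upper-quartile scaling ITGA4 was -0.012 and VCL -0.013, and with the stricter filter VCL was -0.00034. The pairs with both chains detected numbered 16 at a floor of 0.5 CPM and 14 at 2 CPM. Same-numbered libraries did not deviate together (correlations -0.0296, 0.0418 and 0.00761). With 3 libraries per group this cannot show whether the numbers mark a common source. With the replicate block the calls over all genes were 601, and those among the further genes 4. For tested members under 10 CPM, the smallest SE was 0.14.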

Other observations

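The CAS family has 2 members besides those above, CASS4, with 4 counts over all 6 libraries, and EFS, listed at 0 in each. BCAR1 and NEDD9 were thus the CAS genes with enough counts to be tested. Whether EFS RNA was absent or its reads went uncounted was not tested. Of the membrane partners of integrins, the syndecan gene SDC4 had a Vehicle mean of 167.5 ± 3.90 CPM and a TGFB1 mean of 180.1 ± 4.73 CPM (SD, n = 3 each; adjusted p = 0.39 by edgeR). SDC1 stood at 44.5 and 48.3 CPM. The tetraspanin gene CD9 stood at 129.6 and 130.6 CPM, CD81 at 50.3 and 54.1 CPM and CD82 at 4.63 and 4.39 CPM. None of these 5 passed the test. The antisense and divergent RNAs of members, uncertain because the strand setting of the counting is not known, had few reads: PXN-AS1 had 449 counts over all libraries, ITGB2-AS1 41, ITGA6-AS1 33, ITGA9-AS1 24 and ITGB1-DT 23. These genes were chosen after the values of the members were seen.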
